A study of Oryza sativa with 2 samples.

Results

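The 5 rice genes named ARF22, ARF18, ARF8, ARF10 and ARF13 encode auxin response factors, transcription factors that bind the promoters of auxin-regulated genes, and all 5 are paired with the microRNA miR160 in the deposited table. They were found as the lines whose gene symbol is one of these 5 names and whose small RNA is a miR160 form, whether or not the site had reads. This gave 44 of the 25653 small RNA and transcript pairs, on 11 transcripts of 5 genes, out of 823 genes with reads at any listed site. Reads were present for 42 of the 44 pairs, on 20 sites, a site being 1 transcript and 1 cut position.

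The samples were mesocotyls of the indica cultivar P25, taken either from dark-grown seedlings of 5 days (D_5d, hereafter the dark library) or from such seedlings after 1 h in the light (L_1h, the light library). Seedlings of both groups were raised on Murashige and Skoog medium, and no mutant or transgene is named in the labels. Degradome sequencing reads the 5′ ends of uncapped RNA fragments, so repeated cuts at 1 place in a transcript show as reads with the same start. There was 1 library per condition, so no test between the conditions was made, and each interval below is a 95% interval that covers counting error within these libraries only. The dark library had 15422946 reads in all and the light library 34051452, as worked out from the deposited values.

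A plant miRNA pairs with nearly its whole length to a target, and the ARGONAUTE protein it guides cuts the target opposite the middle of the miRNA. In Arabidopsis miR160 cuts the transcripts of ARF10, ARF16 and ARF17, which are classed as repressors of auxin-responsive genes, and versions of these genes that miR160 cannot cut disturb root, leaf and seed development. The mesocotyl is the organ that pushes the shoot of a grass seedling towards the soil surface, and auxin is one of the hormones that govern its elongation.

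The rice names need care. The deposited descriptions call ARF8, ARF10 and ARF13 "auxin response factor 19-like" and call ARF18 and ARF22 "auxin response factor 3-like" or "auxin response factor 3". RefSeq's gene table of assembly ASM3414082v1 holds all 5 names, but the name ARF8 belongs to 2 genes there, one of them also called ARF12, and the name ARF10 to 2 genes, one of them also called ARF18. The identifiers are therefore given too: ARF18 is ZS06g0621100, ARF22 is ZS10g0374500, ARF8 is ZS02g0504000, ARF10 is ZS04g0632900 and ARF13 is ZS04g0812900. A repressor role was not measured in these libraries.

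The 4 miR160 forms that pair with these genes are shown because they differ by single bases. These can change the deposited pairing penalty, though not for every gene, and in 1 form they move the position of the cut that is looked for. They are written 5′ to 3′ with T for U, as deposited, and capitals mark the seed, bases 2 to 8.
osa-miR160a-5p: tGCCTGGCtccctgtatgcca
osa-miR160e-5p: tGCCTGGCtccctgtatgccg
osa-miR160f-5p: tGCCTGGCtccctgaatgcca
ahy-miR160-5p_L+1: cTGCCTGGctccctgaatgcca
Counted from 1 at the 5′ end of osa-miR160a-5p, osa-miR160e-5p carries A21G and osa-miR160f-5p carries T15A, and these 3 forms of 21 bases have the same seed. The form of 22 bases is osa-miR160f-5p with 1 more base, C, at its 5′ end, which moves its seed by 1 base.

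The alignment score, a mispairing penalty that runs from 0 to 4 in the table, divided the genes into ARF13 and the rest. For ARF10, ARF18, ARF22 and ARF8 the score was 1 with osa-miR160a-5p and osa-miR160e-5p, 2 with osa-miR160f-5p and 3 with the form of 22 bases. For ARF13 it was 2 with osa-miR160a-5p, 2.5 with osa-miR160e-5p, 1 with osa-miR160f-5p and 2 with the form of 22 bases. The form with the lowest penalty was thus osa-miR160f-5p for ARF13 and osa-miR160a-5p or osa-miR160e-5p for the other genes. The scores were the same in every transcript version of a gene. Since the 3 forms of 21 bases point to 1 cut position, the reads do not tell which of them guided a cut.

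Reads were found for 95.5% of these pairs, against 12.7% of all pairs in the table and 11.7% of the 2917 pairs with a score of 1 or less. The genes were chosen as targets cut by miR160, with earlier results of these data known. The high share therefore follows from that choice and is not a result about them. The other miR160 pairs gave none, which is also bound to the choice, since every gene with reads at a miR160 pair is among the 5. The table lists 45 further pairs of miR160 with 31 transcripts of 17 other genes, of which 24 pairs involve 3 forms of the other arm, miR160-3p, and 0 of the 45 had reads. Most of these had high penalties, with a median score of 4. The exception, named after its values were seen, was ZS03t0726700-01, a transcript without symbol or description, whose score was 0 with osa-miR160a-5p, 0.5 with osa-miR160e-5p and 1 with osa-miR160f-5p. It was paired with 6 miR160 names in all, miR160-3p forms among them, with scores up to 2.5. A count of 0 at a position allows up to about 3 reads per library there.

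In all 42 pairs with reads the listed cut position faced base 10 of the miR160 form. Each pair is listed with its own cut position only, so reads that start elsewhere would not show. ARF22 was cut at position 1367 of its transcript ZS10t0374500-01, and ARF10 at position 1577 of ZS04t0632900-01. ARF8 was cut at position 1669 of both its transcript versions, and ARF13 at position 1196 of ZS04t0812900-01 and 1333 of ZS04t0812900-02. ARF18 had 5 transcript versions, cut at position 1955 of ZS06t0621100-01 and ZS06t0621100-04, 2166 of ZS06t0621100-02, 1928 of ZS06t0621100-03 and 2008 of ZS06t0621100-05. The versions of a gene had identical read counts at these positions, so they are the same reads placed on several models and are summed per gene below. Genome coordinates, exons and the bases of the target sites are not given here, since no genome was used.

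All 11 of these main positions were in degradome category 0, the highest position of their transcript by common usage, in the dark library. In the light library 9 of them were in category 0, and the ARF13 position was in category 2. The authors' deposited table gives the main positions of ARF10, ARF18, ARF22 and ARF8 the same p-values, 0.0297 (dark) and 0.0341 (light) with osa-miR160a-5p, although their raw reads run from 140 to 786 in the dark library. These deposited p-values thus carry no information on how many reads a position had. For ARF13 the authors' deposited table gives 0.00565 in the dark library, where it had 3 reads, and 0.588 in the light library, where it had 6.

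Together the 5 genes made up a large part of all cleavage signal in the table. Levels are given in TPB, the authors' normalized reads relative to the library total, in which 1 read is worth 64.8 TPB in the dark and 29.4 TPB in the light library. The genes summed to 139338 TPB in D_5d and 184133 TPB in L_1h, which was 39.2% and 37.6% of the TPB at all listed sites. Counted in raw reads they took 2150 of 5797 reads in D_5d, or 37.1% (Wilson interval 35.9 to 38.3), and 6272 of 17511 in L_1h, or 35.8% (35.1 to 36.5), and these intervals overlap. Reads shared by several genes enter these raw sums more than once. The shares also depend on the other sites, among them the miR528 target ZS07g0470600 at 18479 TPB in D_5d and 78323 TPB in L_1h. Over category 0 sites alone the 5 genes held 52.0% of the signal in D_5d and 46.2% in L_1h.

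ARF18 had the highest level of the 5 genes in both libraries. It stood at 51528 TPB (795 raw reads) in the dark library and 76074 TPB (2591 reads) in the light library, the first and the second of all genes. This order is hidden in the deposited lines, where the reads of ARF18 are divided over its 5 versions, each at 10189 and 15003 TPB for the main position.

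ARF22, with 1 transcript version, stood at 36828 TPB (568 reads) in the dark and 51334 TPB (1748 reads) in the light library. ARF8 stood at 41321 TPB (638 reads) in the dark and 31381 TPB (1070 reads) in the light library, so it was above ARF22 in the dark library and below it in the light library. ARF10 stood at 9466 TPB (146 reads) in the dark and 25168 TPB (857 reads) in the light library. ARF13 was near the detection limit, at 195 TPB (3 reads) and 176 TPB (6 reads). Its 3 dark reads equal the floor of 3 reads per library used here, and its Poisson interval in the light library, 64.7 to 384 TPB, spans several fold.

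Each value counts reads that start at a fixed position, so the levels need no correction for transcript length. In the dark library ARF18 was 1.25 times ARF8 (interval 1.12 to 1.39), and ARF8 was 1.12 times ARF22, with an interval from 1.00 to 1.26 whose lower end touches 1. ARF22 was 3.89 times ARF10 (3.24 to 4.70). In the light library ARF18 was 1.48 times ARF22 (1.39 to 1.58), ARF22 was 1.64 times ARF8 (1.52 to 1.77) and ARF8 was 1.25 times ARF10 (1.14 to 1.37). Only ARF8 and ARF22 in the dark library were thus neighbours with little separation beyond counting error. The levels of fragments depend on the amount of transcript, on how much of it is cut and on how long fragments last, and these cannot be told apart here, nor can fewer cells of a type and less RNA per cell.

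**Figure D1:**
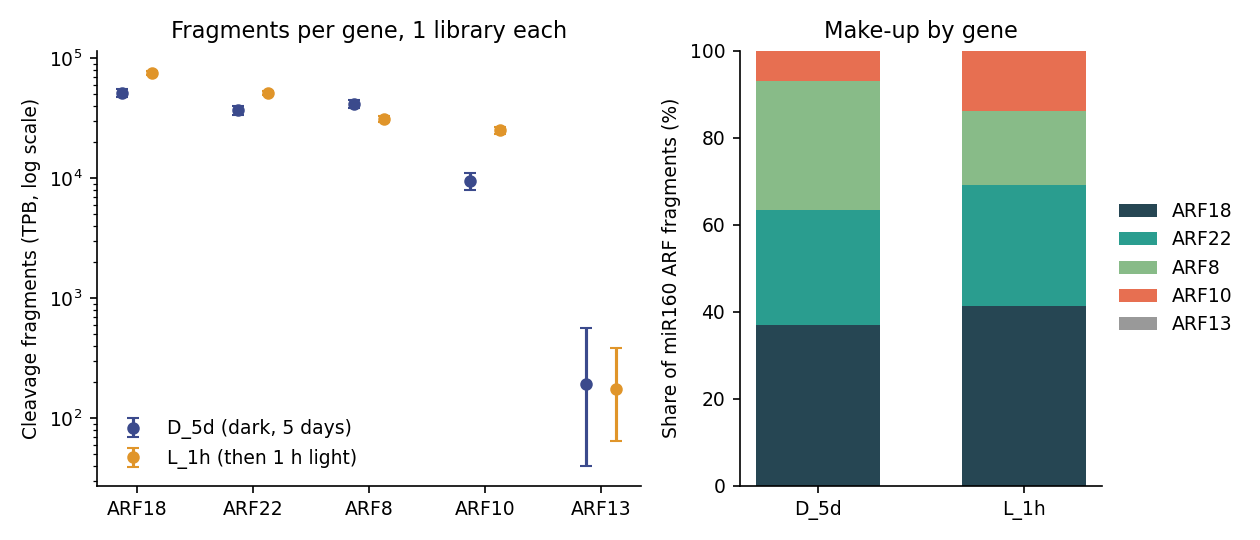
Left, TPB of each gene on a log axis in the dark (D_5d) and the light library (L_1h), 1 library each, with exact Poisson 95% intervals for counting error. Right, the share of the summed TPB of the 5 genes held by each gene in either library. ARF18 is highest in both libraries, ARF10 goes from 6.79% to 13.7% of the sum, and ARF8 from 29.7% to 17.0%.

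In the dark library ARF18, ARF8 and ARF22 stood above every other gene, and ARF10 stood below 3 other genes. The most abundant genes outside the 5 there were NFYA10 ZS12g0498400 (18998 TPB), a subunit gene of the nuclear factor Y complex cut by miR169, the unnamed miR528 target ZS07g0470600 (18479 TPB), SPL16 (12708 TPB), NFYA6 ZS03g0073000 (8883 TPB) and SCL6 ZS06g0014000 (8105 TPB). In the light library ZS07g0470600, at 78323 TPB, was above ARF18, and NFYA10 (16240 TPB), SPL16 (15712 TPB), AP2 ZS05g0027300 (12540 TPB) and SCL6 ZS04g0662300 (10778 TPB) were below ARF10. By level ARF18, ARF8, ARF22 and ARF10 ranked 1, 2, 3 and 7 of all genes before light and 2, 4, 3 and 5 after it.

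The second question was how the fragments of each gene in the light library stood against the dark library. ARF10 was 2.66 times as abundant in the light library (interval 2.23 to 3.19), ARF18 1.48 times (1.36 to 1.60) and ARF22 1.39 times (1.27 to 1.53). ARF8 lay on the other side of 1, at 0.759 (0.688 to 0.839). ARF13, at 0.906 (0.193 to 5.60), showed no difference that could be detected on 3 and 6 reads. The sign is the opposite of the authors' deposited table, whose log2 fold change is dark over light, for instance -1.45 at the main position of ARF10 and 0.40 at that of ARF8.

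By a rule of at least 2-fold with an interval that excludes 1, 1 of the 5 genes (ARF10) was called higher and 0 lower. Of all 823 genes 3.28% were called higher and 2.31% lower, 5.59% in all (27 and 19 genes, or 12 and 44 with the sum scaling described below), but most have few reads. Among the 29 genes with at least 100 raw reads, which include 4 of the 5, 24.1% were called, all of them higher. The interval excluded 1 for 4 of the 5 genes, against 7.05% of all genes and 65.5% of those 29, so at this depth an interval on 1 side of 1 is common. It lay above 1 for 51.7% of the 29 genes, ARF10, ARF18 and ARF22 among them, and below 1 for 13.8%, ARF8 among them. By position, 1 of the 20 sites was called, the main position of ARF10 at 2.73 (2.28 to 3.29), against 4.89% of all 2064 sites. The 29 genes had a median ratio of 1.37, in the range from 0.522 to 8.03. Of these 29 genes 3 had a higher ratio than ARF10 (AP2 ZS05g0027300, ZS07g0470600 and HMG3) and 2 a lower ratio than ARF8 (SCL6 ZS06g0014000 and SPL12). By rank the 4 ARF genes were thus spread widely, though their ratios, from 0.759 to 2.66, covered only part of the range. Genes with at least 50 reads whose ratio came nearest to that of ARF10 were NAC021 ZS12g0491700 at 2.60 (1.78 to 3.92), SPAC343.06c ZS02g0157500 at 2.50 (1.40 to 4.78) and GRF5 at 2.47 (1.56 to 4.09), a likeness that rests on 2 libraries.

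**Figure D2:**
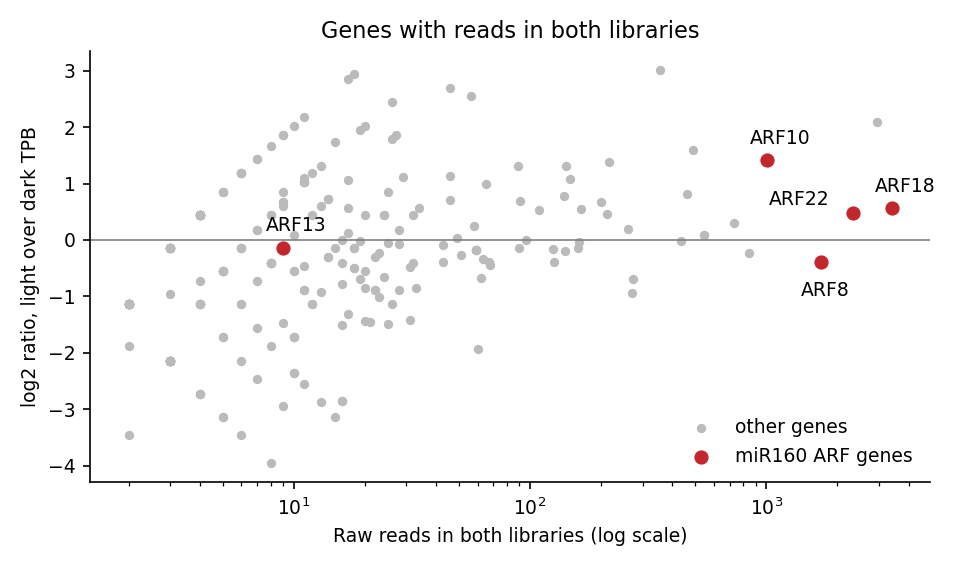
Each point is 1 of the 255 genes with reads in both libraries, by its raw reads in both libraries together (log axis) and the log2 ratio of light over dark TPB. The miR160 ARF genes, in red, lie at the right edge apart from ARF13, and their log2 ratios run from -0.40 for ARF8 to 1.41 for ARF10.

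How far these ratios stand from 1 depends on how the libraries are put on 1 scale. With the median ratio of the 692 sites read in both libraries as the size factor, the ratios were 3.01 for ARF10, 1.67 for ARF18, 1.58 for ARF22 and 0.860 for ARF8. Sites with few reads enter that median, where 1 read in each library gives 0.453, and versions of a gene enter it separately. With the sum over the 692 sites the ratios were 1.96, 1.09, 1.03 and 0.560 in the same order, so ARF10 was no longer called. The 5 genes themselves hold 41.2% (dark) and 40.1% (light) of that sum, and the miR528 target ZS07g0470600 holds 5.46% and 17.1%. Without that target in the sum, an alternative chosen once the data were known, ARF10 stood at 2.23 (1.87 to 2.68), which the rule calls. Without the 5 genes in the sum, also chosen once the data were known, ARF10 stood at 1.93 (1.61 to 2.31), which the rule does not call. Under all these scalings ARF10 lay above 1 and ARF8 below it, with intervals that exclude 1. The interval of ARF22 included 1 with the sum, and those of ARF18 and ARF22 did so without the 5 genes in it.

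**Figure D3:**
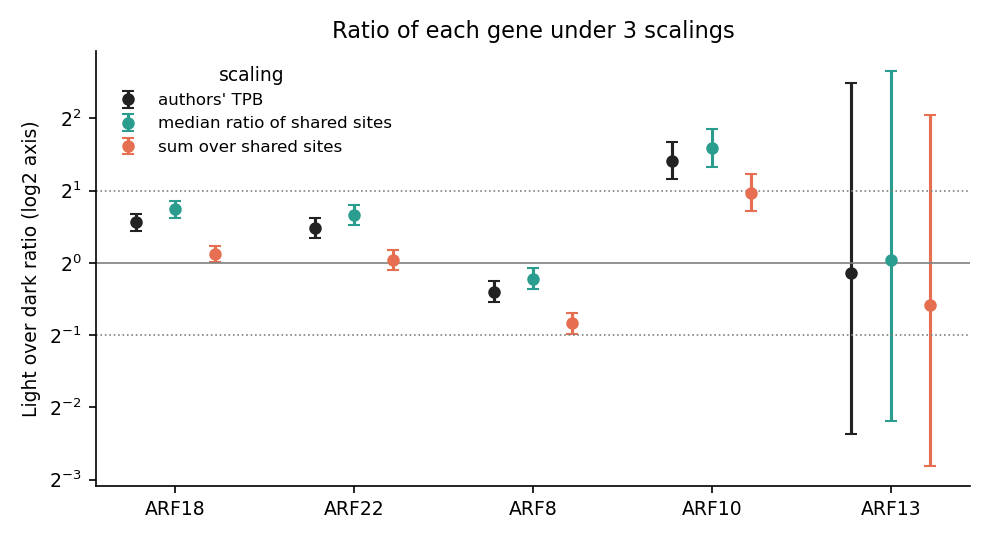
Light over dark ratio of each gene on a log2 axis under the authors' TPB, the median ratio of shared sites and the sum over shared sites, with 95% counting intervals. Solid and dotted lines mark a ratio of 1 and 2-fold either way. A scaling divides all ratios by the same factor, so the order ARF10, ARF18, ARF22, ARF8 cannot change between scalings. ARF13 spans all lines.

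A comparison of genes with each other within the libraries needs no scaling between them. ARF10 fragments went from 6.79% of the TPB of the 5 genes in the dark library to 13.7% in the light library, and ARF8 fragments from 29.7% to 17.0%. ARF18 stood at 37.0% and 41.3%, and ARF22 at 26.4% and 27.9%. In raw reads the exact interval for ARF10 was 5.76 to 7.94% in the dark and 12.8 to 14.5% in the light library, and that for ARF8 27.7 to 31.7% and 16.1 to 18.0%, in both cases without overlap.

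The 10 pairs of genes were compared by the odds ratio of their raw reads, light against dark, with an exact conditional interval and no adjustment. ARF10 against ARF8 gave the largest, 3.50 (2.85 to 4.31). ARF10 stood at 1.80 against ARF18 (1.48 to 2.20) and at 1.91 against ARF22 (1.56 to 2.34). ARF18 and ARF22 stood at 1.94 (1.71 to 2.21) and 1.83 (1.60 to 2.11) against ARF8. Between ARF18 and ARF22 it was 1.06, with an interval from 0.934 to 1.20 that includes 1 and leaves room for a difference of that size. The intervals of the 4 pairs with ARF13 included 1. The genes that miR160 cuts thus did not share 1 ratio between these libraries, and with 1 library per condition this difference has no replicate check.

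**Figure D4:**
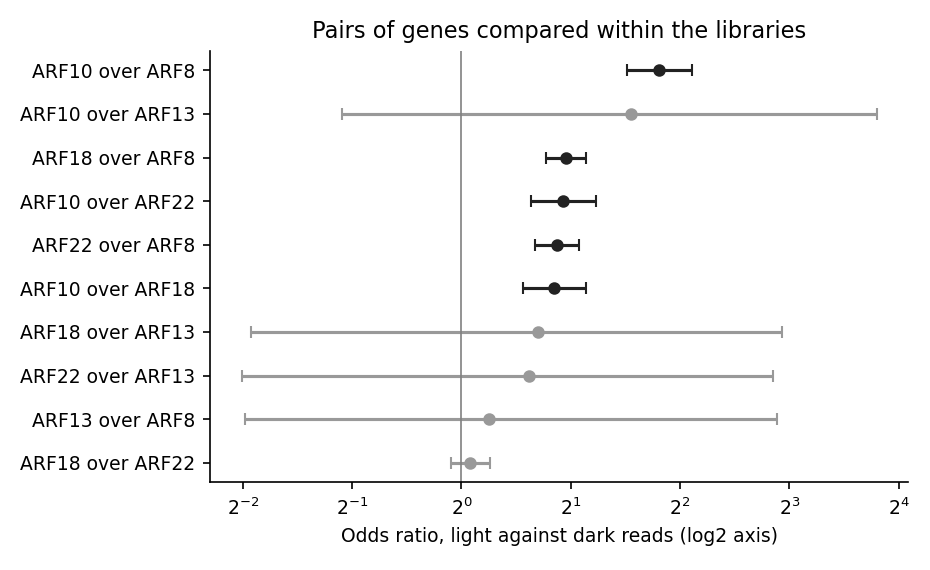
Odds ratio of raw reads, light against dark, for each of the 10 pairs of genes on a log2 axis, with exact conditional 95% intervals. Black points, 5 pairs, have intervals that exclude 1, and grey points have intervals that include it.

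Near-identical copies could share reads, and here the deposited values show how many did. The authors' normalized reads divide each read by the places it matches. For ARF8 and ARF18 the main positions have normalized reads slightly under raw reads divided by the number of versions, 316.6 against 317 and 157.1 against 157.2 in the dark library. The gap in both genes is what 1 read in the dark and 2 reads in the light library would give if they matched 7 places, the 2 ARF8 and 5 ARF18 versions together. The normalized reads of ARF10 and ARF22 equal their raw reads, and those of ARF13 equal raw reads over its 2 versions. Whether reads were also shared with positions outside the table was not tested.

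A second, much smaller pile of reads started 1 base further along, at the position paired with base 10 of the form of 22 bases. It was read for ARF18, ARF22, ARF8 and ARF10 and in category 2 in both libraries. The authors' deposited p-values of this position were 0.838 (dark) and 0.962 (light) in each of these genes. ARF18 had 9 of 795 reads there in the dark and 36 of 2591 in the light library, or 1.13% (0.519 to 2.14) and 1.39% (0.975 to 1.92). ARF22 had 7 of 568 and 26 of 1748, or 1.23% (0.497 to 2.52) and 1.49% (0.974 to 2.17). ARF8 had 4 of 638 and 11 of 1070, or 0.627% (0.171 to 1.60) and 1.03% (0.514 to 1.83).

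ARF10 had 6 of 146 reads at the further position in the dark library, or 4.11% (1.52 to 8.73), and 13 of 857 in the light library, or 1.52% (0.810 to 2.58). These intervals overlap, and the dark value is the highest of the 8 on 6 reads. Over the 4 genes the share was 1.21% (0.793 to 1.77) in the dark and 1.37% (1.10 to 1.69) in the light library. ARF13 had no read there in either library, and the 2 pairs of its versions with the form of 22 bases are the pairs without reads among the 44. Which of the miR160 forms gave these reads was not tested. Other positions beside the main cut are not listed, so a comparison with scatter around that cut was not made.

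**Figure D5:**
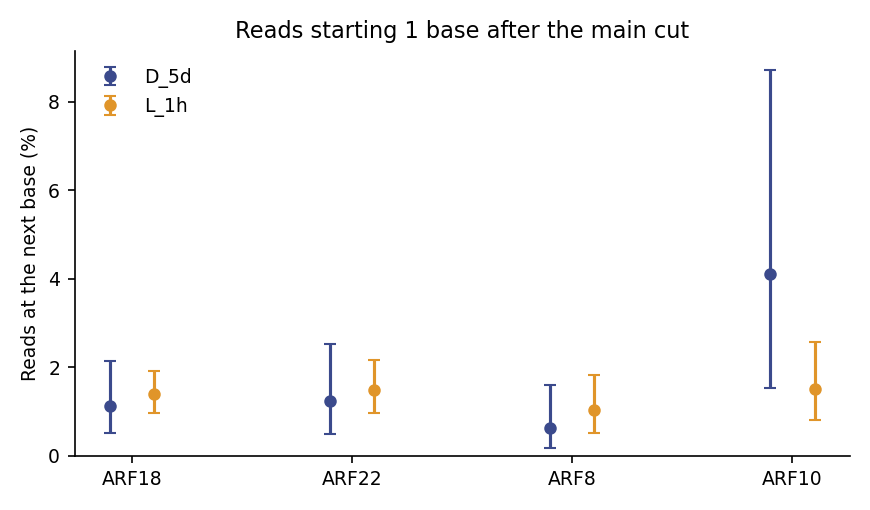
Percent of the reads of each gene that start 1 base after the main cut, in the dark (D_5d) and the light library (L_1h), with exact 95% binomial intervals. All values lie between 0.627% and 4.11%, and the intervals of the libraries overlap for each gene.

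The authors' deposited table also holds p-values between the libraries, and their size follows from how TPB was used. Fisher's exact test on TPB rounded to whole numbers, against the TPB summed over all pairs with reads, gave the deposited value within 0.1% at all 2054 sites whose value was at least 1e-200. TPB thus stood in for counts, although 1 read is worth 64.8 or 29.4 TPB. At ARF13, with 3 and 6 reads, the authors' deposited table gives 0.0459, and of 754 sites with a single read in all, 675 have a deposited value below 0.05. Moreover the sum counts a site once for each small RNA paired with it, and the miR160 pairs of the 5 genes make up 34.1% of it in the dark and 36.8% in the light library. These p-values were not used here.

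Each of the other genes on a list meant to cover the auxin pathway had fewer reads than ARF18, ARF22, ARF8 and ARF10, at most 260, though some had more than the 9 of ARF13. The list, drawn by small RNA family (miR164, miR167, miR390, miR393) or by auxin words in the symbol or description, held 26 genes with reads besides the 5, with a median of 7 raw reads against 1708 for ARF8, the middle one of the 5. Of the 26 genes 3 were called higher and 3 lower, against 3.28% and 2.31% of all genes, and 20 were not called. With the sum scaling 1 of them, PSK5, was called higher, and the calls of NAC021 ZS12g0491700 and NAC100 were lost. The median ratio was 0.758 over the 16 genes with reads in both libraries, against 0.883 over the 255 such genes in all. Both medians include genes with few reads, for which the need for reads in both libraries favours low ratios. Since the light library is deeper, 1 read in each gives 0.453. The 29 genes with at least 100 raw reads had a median of 1.37.

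The auxin receptor genes cut by miR393, whose products bind auxin and mark repressors of ARF proteins for destruction, were not called. Os04g0395600 stood at 0.906 (0.645 to 1.28), and Os05g0150500 had a ratio of 0.761 (0.524 to 1.12). An unnamed miR393 target, ZS03g0460300, at 0.356 (0.146 to 0.844) on 14 and 11 reads was called lower. The miR167 targets ARF12 and ARF25, which belong to another class of ARF genes, stood at 0.634 (0.262 to 1.60) on 10 and 14 reads and 0.755 (0.147 to 4.86) on 3 and 5 reads. Genes paired with miR164 were called in both directions. NAC021 ZS12g0491700, NAC100 at 2.13 (1.38 to 3.38) and PSK5 at 5.89 (2.17 to 22.4) were called higher, and NAC021 ZS08g0123100 at 0.373 (0.170 to 0.804) was called lower. Os09g0567700, paired with miR167, was called lower at 0.0647 (0.00144 to 0.504) on 7 and 1 reads. A further miR164 gene, NAC021 ZS06g0612500, stood at 1.14 (0.865 to 1.51) on 74 and 186 reads. Because of how it was drawn, the list also holds genes with no auxin role in their names, such as RGA3, dnaJ and Ythdf1 (miR167) and 1 gene for an ADP-ribosylation factor, which shares only the letters ARF. Besides ARF10, none of the called genes on the list has an auxin word in its symbol or description. They entered it by their small RNA family.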

How the data were processed

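Degradome libraries of 2 samples, D_5d and L_1h, were compared. Raw reads are whole-number read counts per cut position, per the file headers. The authors' normalized reads, a signal, divide raw reads by matching places, and TPB, also a signal, is the authors' normalized reads times 1 constant per library, as the deposited values show. The read total follows from that constant, and it may hold all reads or only mapped ones. Aligner, target finder and build: not given in the sources used here (labels and headers). The authors deposited p-values per site and between libraries, a category, an alignment score and a log2 fold change (dark over light). Columns headed D_1h were taken for D_5d, because their normalized reads times that constant give the TPB headed D_5d. A further 20 columns of the other sheets, a selection of the first, were not used. In the first sheet 1 line was empty.

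Sites (transcript and position) were summed to genes in TPB, with raw reads from the version with most. Ratios are light over dark TPB with exact Clopper-Pearson 95% intervals of raw reads, scaled to the TPB ratio. These cover counting error only, since PCR reads are not independent molecules. A call needs 2-fold and an interval that excludes 1. The code was tested on simulated data. Members and lists were chosen with earlier results of these data known. Named were all 5 genes, and from the auxin list called genes, miR167 ARF genes, miR393 receptors and the 3 other genes with most reads (NAC021 and NAC100 genes), the 5 most abundant other genes per library and the 3 genes nearest in ratio to a called member. Python 3.11.15, SciPy 1.17.1 and pandas 2.3.3 were used. Alternatives concerned scaling, raw reads, versions, category 0, miR160 names and the fold.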

Additional observations from a re-analysis of the deposited data

How the results depend on the processing

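Scaling moved the ratios, and the other choices, which could hardly move them, did not. The median scaling gave 1.67 for ARF18, 1.58 for ARF22 and 0.860 for ARF8 by gene, and 1.67, 1.57 and 0.856 at their main positions. The sum scaling gave 1.09, 1.03, 0.560 and, for ARF10, 1.96 by gene, and 1.09, 1.03, 0.558 and 2.01 at the main positions. The number of ARF genes called higher then went from 1 to 0 and that of other auxin list genes from 3 to 1 (NAC021 ZS12g0491700 and NAC100 lost), while over all genes 12 were called higher and 44 lower in place of 27 and 19. Leaving the 5 genes out of the sum, chosen after the data were seen, gave 1.07 for ARF18, 1.01 for ARF22, 0.550 for ARF8 and 1.93 for ARF10, with an interval for ARF18 that now includes 1 (0.988 to 1.16), and leaving out the miR528 target gave 1.24, 1.17 and 0.638 for the first 3. The share of all listed signal at the 5 genes, 39.2% and 37.6%, was 52.0% and 46.2% over category 0 sites alone, since fewer sites enter, and 37.1% and 35.8% in raw reads.

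By gene, raw reads, the version with most reads, category 0 sites and rice miR160 names kept each ratio within its counting interval. These choices could hardly move a ratio. Versions of a gene carry the same reads, and TPB is normalized reads times a constant per library. Category 0 sites and rice miR160 names both keep only the main positions, which hold nearly all reads, and gave the same ratios. The 1.5-fold rule gave the same counts of calls among the 5 genes and in the auxin list. Restricting pairs to mature miR160 names was not run, since all pairs with these genes have such names, and names given to rice miR160 were used in its place, chosen after the data were seen. ARF13, with 9 reads in all, allows no statement on direction. No paired analysis was possible because each condition has 1 library.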
